A study of Mus musculus with 18 samples.

Results

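The miR-378 family is a small group of microRNAs (miRNAs) that are grouped here by their shared name. The mature miRNAs listed for it, mmu-miR-378a-3p, mmu-miR-378a-5p, mmu-miR-378b, mmu-miR-378c and mmu-miR-378d, were found by name in every count table, so the family comprised 5 of the 1431 miRNAs listed and came from 4 precursors. They were followed across 18 small RNA libraries of whole eyes, lungs and testicles from male C57BL/6 mice aged 8 to 12 weeks. Left and right organs were kept apart, with 3 libraries in each of 6 groups (left eye, right eye, left lung, right lung, left testicle and right testicle), and the labels name no treatment or engineered allele. The study asked how miRNA levels compare between the paired sides of each organ. Nothing in the labels says whether a left and a right library came from one mouse, or whether the 3 libraries of a group came from separate mice, so the p-values measure the spread between these libraries, which may be technical in part, and n = 6 per organ may overstate the replication.

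A miRNA is cut from a hairpin precursor, and either strand of the stem can be loaded into an Argonaute protein, where the seed (bases 2 to 8) guides pairing to messenger RNAs. The 3p strand of miR-378a is the one usually described as the active product and the 5p strand as its passenger. The precursor of miR-378a lies within Ppargc1b, the gene of the coactivator PGC-1β, which promotes mitochondrial and fatty acid oxidation programmes, and miR-378a is known from work on energy metabolism, brown fat and striated muscle. Of the other members, miR-378b, miR-378c and miR-378d come from precursors of their own, and less is known of them.

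Mature sequences of 3 of the 5 members, miR-378b, miR-378c and miR-378d, were matched by name to RefSeq (GRCm38.p6), and are shown because their likeness bears on how reads are assigned to them. Capitals mark the seed.
miR-378b: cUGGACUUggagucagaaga
miR-378c: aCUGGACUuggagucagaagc
miR-378d: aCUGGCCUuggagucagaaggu
Written 5′ to 3′, they are 20, 21 and 22 bases long. With miR-378b set 1 base to the right of miR-378c, 19 of 20 aligned bases were identical, and the only substitution was A20C, counted from 1 at the 5′ end of miR-378b. The start of miR-378c lies 1 base upstream, so the seeds differ by a shift of 1 base although the sequences nearly coincide. Between miR-378c and miR-378d the aligned substitutions were A6C, within the seed, and C21G, near the 3′ end, both counted from the 5′ end of miR-378c. None of these seeds occurred in any of the other listed miRNAs that had a RefSeq sequence (1209 of the 1431 names had one). The strands of miR-378a had no sequence there, so they were left out of this comparison. Whether miR-378a-3p shares a seed or reads with these members was therefore not examined, although it had by far the most counts of the family. The run of 19 bases that miR-378b and miR-378c share means that a trimmed or partly read fragment cannot be told apart between them, and their counts are uncertain to the extent that the authors' counting split such reads. No 2 members had identical counts across the libraries.

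The hairpins of miR-378b and miR-378c are shown, with the mature miRNA in capitals, because nearly the same sequence lies on opposite arms of their precursors.
Mir378b: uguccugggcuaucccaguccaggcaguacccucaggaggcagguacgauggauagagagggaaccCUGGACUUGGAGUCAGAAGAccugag
Mir378c: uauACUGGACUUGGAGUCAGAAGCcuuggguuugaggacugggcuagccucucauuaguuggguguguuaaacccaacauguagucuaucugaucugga
In Mir378b (92 bases) the mature part covers bases 67 to 86, towards the 3′ end, and in Mir378c (99 bases) it covers bases 4 to 24, towards the 5′ end. In GRCm38.p6 coordinates, Mir378b occupies chr11:88352773-88352864 on the plus strand, inside an intron of Msi2, which is transcribed from the opposite strand. Mir378c occupies chr14:46954830-46954928 on the minus strand, inside an intron of Samd4, again a gene of the opposite strand. Mir378d, at chr10:126710282-126710391 on the minus strand, overlapped no annotated gene. Mir378a is therefore the only member of these 4 whose precursor lies in an intron on the same strand as its host, Ppargc1b.

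Library totals, as the sum of counts over all listed miRNAs, ran from 2451484 to 2680204 for eyes, from 2538402 to 2790471 for lungs and from 952608 to 1893132 for testicles. Counts are given below as counts per 1e6 (CPM) after scaling by the trimmed mean of M values (TMM). A library in which a miRNA had no counts could still hold up to 3, equal to 1.08 to 1.22 CPM for eyes and lungs and to 1.58 to 3.15 CPM for testicles. These floors were taken from the library totals without TMM scaling, so they differ somewhat in scale from the CPM below. Intervals and floors of this kind cover counting error only, since amplified reads that carry no molecular identifier do not each stand for a molecule. The organ labels were checked against 5 defining miRNAs each: all 5 eye markers (such as miR-183-5p and miR-184-3p) were higher in the eye than in either other organ, of the 5 lung markers (such as miR-126a-3p and miR-200c-3p) all exceeded the eye and the testicle, and all 5 testicle markers (such as miR-202-5p and miR-741-3p) were higher in the testicle than in either other organ. These markers were listed with earlier results of these data known, so the check of the labels is not an independent one. Whole organs were sequenced in bulk, so a lower level here can mean fewer cells of a type or less RNA per cell, and these cannot be told apart.

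The family was highest in the eye, intermediate in the lung and lowest in the testicle. Summed over its members it took 0.968% ± 0.216 (SD, n = 6) of all counts in eye libraries, 0.312% ± 0.0643 of those in lung libraries and 0.0785% ± 0.0080 of those in testicle libraries. Nearly all of this was miR-378a-3p, which made up 90.9%, 90.6% and 90.2% of the family's counts in eye, lung and testicle. By mean CPM, miR-378a-3p ranked 30 among the 1185 miRNAs detected in the eye, 54 among 1128 in the lung and 113 among 1089 in the testicle. Over all libraries miR-378a-3p had 186600 counts, miR-378a-5p 14609, miR-378b 3417, miR-378c 572 and miR-378d 7.

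The dominant strand, miR-378a-3p, had 12557, 7862 and 6448 CPM in the 3 left eyes and 8198, 7578 and 8667 CPM in the 3 right eyes. In the lung it had 2651, 3229 and 1941 CPM on the left and 2342, 2717 and 2167 CPM on the right. In the testicle it had 685, 717 and 965 CPM on the left and 925, 833 and 838 CPM on the right. The 3 organs did not overlap: the lowest eye library lay above the highest lung library, and the lowest lung library above the highest testicle library. Its mean level in eyes was 3.41-fold that in lungs (95% interval 2.61 to 4.46; log2 fold change 1.77, SE 0.18, edgeR quasi-likelihood test with Benjamini-Hochberg adjustment, adjusted p = 1.9e-07) and 10.3-fold that in testicles (interval 7.77 to 13.8; log2 3.37, SE 0.19, adjusted p = 1.0e-10). The lung stood 3.03-fold above the testicle (interval 2.32 to 3.96; log2 1.60, SE 0.18, adjusted p = 5.3e-07). This interval does not cover the choice of scaling. The log2 value was 1.84 with relative log expression scaling and 2.00 with library totals. With left lung 1 or left testicle 1 as TMM reference it was 2.16 or 2.12. The first left eye library stood apart at 12557 CPM; without it, the log2 fold change was 1.59 against the lung and 3.21 against the testicle, and both calls held. Leaving out right eye library 2 lowered the value between eye and lung to 1.08 and raised that between lung and testicle to 2.23. Both calls were kept. Without that library the median over all tested miRNAs also moved, from 0.00 to -0.54 and from -0.90 to -0.29. The libraries are scaled anew when 1 is left out, and this shift bears equally on the other members below. What part of the change is scaling was not tested.

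**Figure D1:**
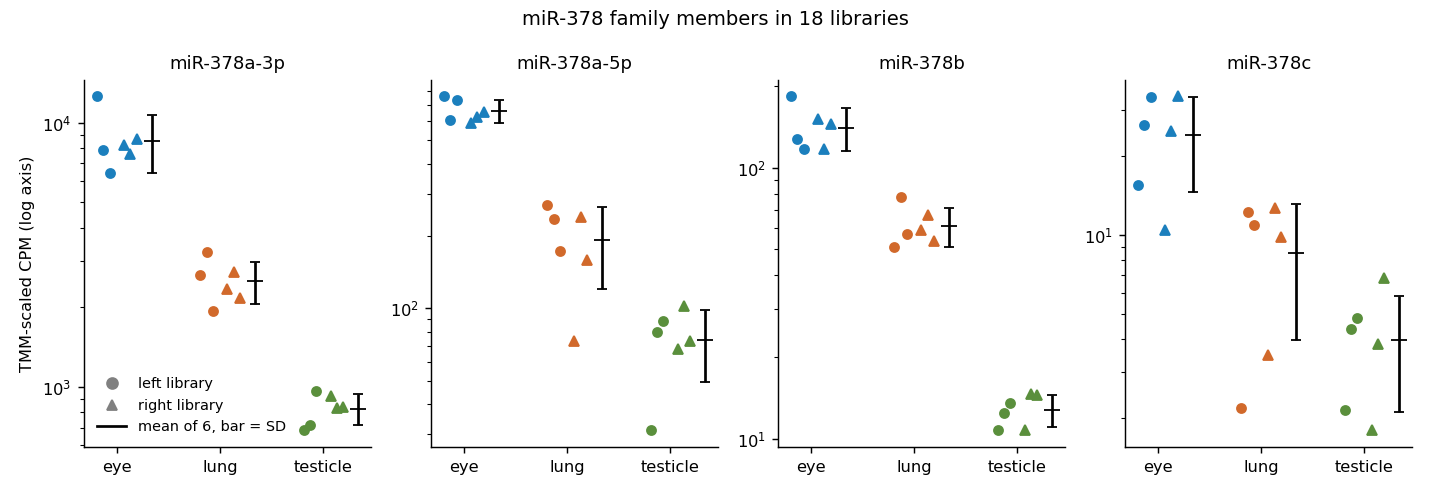
CPM after TMM scaling (log axis) of the 4 members with enough counts to test, in the eye, lung and testicle. Circles are left and triangles right libraries, and the black mark and bar beside each organ are the mean and SD of its 6 libraries; the organs are fully separated for miR-378a-3p and miR-378b, while the lung and testicle overlap for miR-378a-5p and all 3 organs come closer together for miR-378c.

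The passenger strand, miR-378a-5p, followed the same order at a lower level. Eye libraries held 590 to 761 CPM (median 641), lung libraries 73.4 to 269 CPM (median 204) and testicle libraries 31.1 to 103 CPM (median 76.3). The eye libraries stood clear of all others, while right lung library 1, at 73.4 CPM, fell within the range of the testicle. The eye was 3.50-fold above the lung (interval 2.30 to 5.33; edgeR, log2 1.81, adjusted p = 2.6e-05) and 8.98-fold above the testicle (interval 5.75 to 14.0; log2 3.17, adjusted p = 5.8e-08). The difference between lung and testicle, 2.56-fold (interval 1.68 to 3.90; log2 1.36, adjusted p = 3.9e-04), was also called, but from the right libraries alone it was 0.88 on the log2 scale and not called (adjusted p = 0.0794), and from the left libraries alone it was 2.14. Without right eye library 2, the log2 fold change between eye and lung was 1.10 and that between lung and testicle 1.99, and both were still called.

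Both strands of miR-378a come from 1 hairpin, so their ratio was compared within each library, where scaling cancels. For every 100 counts of miR-378a-3p eye libraries had 8.03 ± 1.80 counts of miR-378a-5p, lung libraries 7.61 ± 2.44 and testicle libraries 8.86 ± 2.77 (mean ± SD, n = 6 each). No difference between organs exceeded the spread between libraries: the mean log2 ratio differed by 0.14 between eye and lung, by -0.11 between eye and testicle and by -0.25 between lung and testicle (two-sided exact permutation tests, p = 0.73, 0.66 and 0.48, adjusted p = 0.73 for each over 6 tests). The lowest ratio, 3.13 per 100, was in right lung library 1 and the next lowest, 4.55, in left testicle library 1. The highest, 12.3, was in a right testicle. Right lung library 1 also had the fewest miRNAs detected of the lung libraries, 696 beside 782 to 852 in the others.

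The next member by level, miR-378b, had 183, 128 and 118 CPM in the left eyes and 151, 117 and 144 CPM in the right eyes. It had 50.8, 78.0 and 57.0 CPM in the left lungs, 58.7, 67.0 and 53.6 CPM in the right lungs, 10.7, 12.5 and 13.5 CPM in the left testicles and 10.8, 14.7 and 14.4 CPM in the right testicles. No organ overlapped another, although the testicle values rested on only 10 to 23 counts per library. The eye was 2.30-fold above the lung (interval 1.77 to 2.99; edgeR, log2 1.20, adjusted p = 1.3e-05) and 10.9-fold above the testicle (interval 8.13 to 14.7; log2 3.45, adjusted p = 1.1e-10), and the lung was 4.74-fold above the testicle (interval 3.56 to 6.31; log2 2.25, adjusted p = 1.9e-08). Without right eye library 2 the value between eye and lung was 0.54 on the log2 scale and that between lung and testicle 2.87, and both were still called.

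In the lung, miR-378b was high relative to miR-378a-3p. Per 100 counts of miR-378a-3p, lung libraries had 2.45 ± 0.324 counts of it (1.92 to 2.94), eye libraries 1.66 ± 0.150 (1.46 to 1.84) and testicle libraries 1.56 ± 0.235 (1.17 to 1.76). Every lung library exceeded every eye and every testicle library. The mean log2 ratio of the eye was below that of the lung by 0.56 (difference -0.56), and that of the lung was above that of the testicle by 0.62; each had a two-sided exact permutation p of 0.0022, the smallest that 924 arrangements of 6 against 6 libraries can give, and an adjusted p of 0.0065. Between eye and testicle the difference was 0.06 (exact p = 0.63). On each side alone the differences kept their size: -0.55 and 0.56 from the left libraries, and -0.56 and 0.67 from the right. This ratio does not depend on the scaling of the libraries, but it does depend on how reads were divided between near-identical members, which was not tested.

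**Figure D2:**
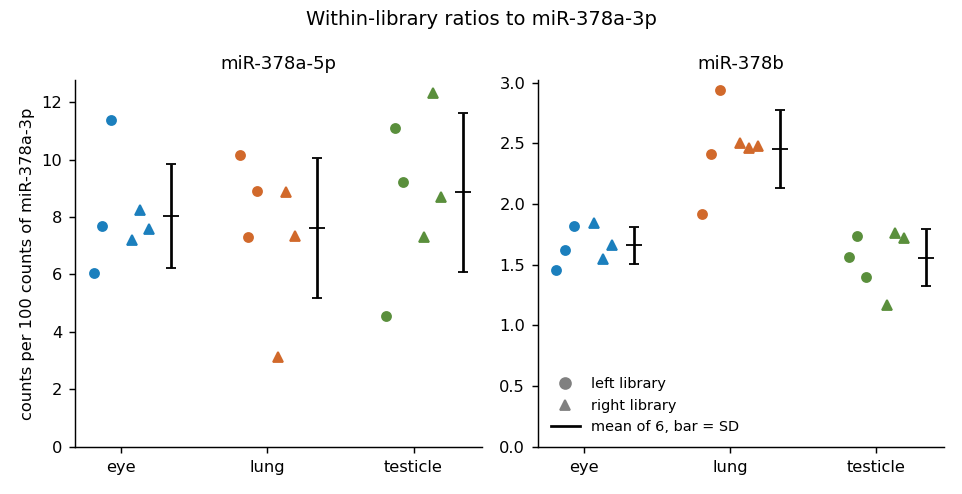
Counts of miR-378a-5p (left panel) and miR-378b (right panel) per 100 counts of miR-378a-3p in each library, with the mean and SD of 6 libraries beside each organ. The 3 organs overlap for miR-378a-5p, whereas the 6 lung libraries, at 1.92 to 2.94, lie above all eye and testicle libraries for miR-378b.

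A far scarcer member, miR-378c, had 43, 69 and 103 counts in the left eyes and 26, 62 and 79 in the right eyes, 6, 40 and 37 in the left lungs and 9, 35 and 32 in the right lungs, and 2 to 9 in the testicles. In CPM, eyes ranged from 10.5 to 33.7 (median 25.5), lungs from 2.18 to 12.6 (median 10.3) and testicles from 1.80 to 6.83 (median 4.09). Eye and lung overlapped, as did lung and testicle, while the eye and testicle did not. The eye was 2.78-fold above the lung (interval 1.53 to 5.05; edgeR, log2 1.47, SE 0.41, adjusted p = 0.0044) and 5.87-fold above the testicle (interval 2.90 to 11.9; log2 2.55, SE 0.48, adjusted p = 1.2e-04). The difference between lung and testicle, log2 1.08 (SE 0.49), did not pass the threshold (adjusted p = 0.0572; 2.11-fold, interval 1.02 to 4.37). That call depended on the setting: it was made with library totals in place of TMM (1.49), with DESeq2 (1.30) and in a fit with the library number as a further term (1.06, adjusted p = 0.0021), among others. Without right eye library 2 the difference between eye and lung was 0.78 and no longer called (adjusted p = 0.119), and that between lung and testicle became 1.68 and was called.

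Part of the wide spread of miR-378c followed the number that the labels give each library. In all 6 groups the library numbered 1 had the lowest miR-378c, and the mean of the other 2 libraries was 1.93- to 5.30-fold higher. The same count was 4 of 6 groups for miR-378a-5p, 3 for miR-378b and 1 for miR-378a-3p. In an edgeR fit with the group and the library number as terms, libraries numbered 1 differed from the mean of those numbered 2 and 3 by -1.49 on the log2 scale for miR-378c (adjusted p = 0.0069), and this was the only call among 642 miRNAs (0.156%). The count of calls varied with the setting: 23 miRNAs were called with no filter (1431 tested), 9 without right eye library 1, and 12 by DESeq2, which gave miR-378c no adjusted p, so that miR-378c was not among them. The corresponding values were -0.38 for miR-378a-5p (adjusted p = 0.59), 0.12 for miR-378a-3p and -0.01 for miR-378b (adjusted p = 0.79 and 0.99). Among all tested miRNAs, 6 of 642 (0.935%) were lowest in the library numbered 1 in every group. This comparison was made after the values had been seen, and the labels do not say what the number stands for. The call was lost without left lung library 1 (-1.29, adjusted p = 0.0557) and without any 1 of the organs, with the direction kept each time. Red-cell miRNAs did not follow the number in 1 direction: their summed CPM was lowest in both testicle libraries numbered 1 (239 and 370, against 5363 to 10561 in the other testicles) and highest in the eye libraries numbered 1 of each side (4303 against 1934 and 2275 on the left, 2377 against 1413 and 1538 on the right). In right lungs the library numbered 1 had the lowest sum (2158 against 2944 and 5864). In left lungs it lay in between (2224 against 1519 and 2870). The part of red-cell miRNAs in the result was not tested.

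**Figure D3:**
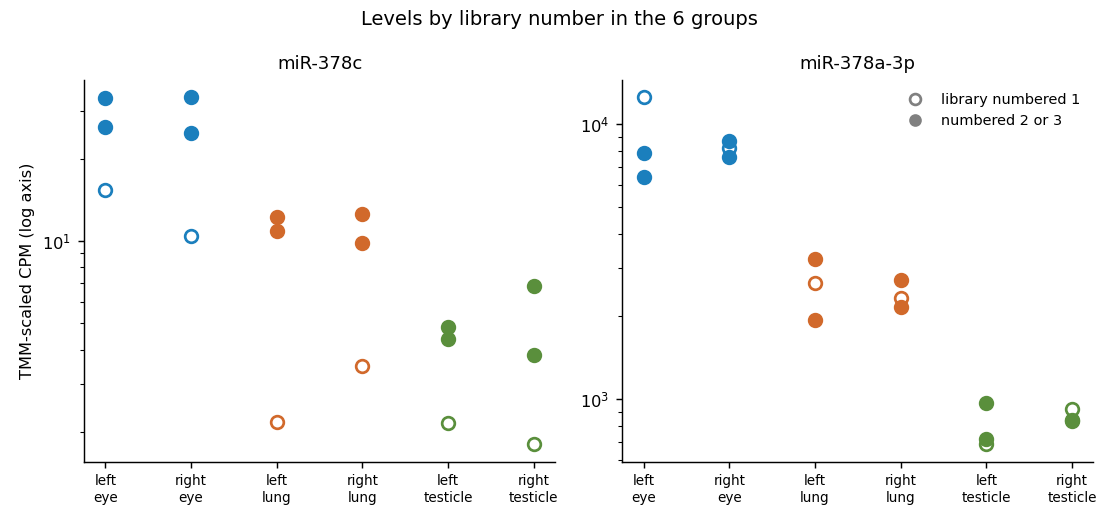
CPM after TMM scaling (log axis) of miR-378c (left panel) and miR-378a-3p (right panel) in the 6 groups, with open circles for the library numbered 1 and filled circles for those numbered 2 and 3. The open circle is the lowest of its group in 6 of 6 groups for miR-378c and in 1 of 6 for miR-378a-3p.

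The last member, miR-378d, was near the limit of detection. It had 4 counts over the 6 eye libraries (1, 1 and 2 in the left eyes and none in the right eyes), 3 over the lung libraries and 0 over the testicle libraries. In CPM of the summed totals this is 0.262 for eyes (exact Poisson 95% interval 0.0714 to 0.671) and 0.188 for lungs (0.0387 to 0.549). For the testicle, the floor of 3 counts used above is 0.339 CPM over the organ, and the upper end of the exact Poisson 95% interval is 0.417 CPM. This member was removed by the filter on low counts in every comparison, and no difference between organs was detectable at this depth.

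Organ differences were common among all miRNAs, which is the background for these calls. Of 642 miRNAs tested, 59.8% were called between eye and lung, 79.3% between eye and testicle and 76.5% between lung and testicle, and those called in the direction of the family were 35.4% (higher in the eye), 40.2% (higher in the eye) and 27.4% (higher in the lung). Of the 4 family members tested, 4, 4 and 3 were called, all in that direction; the 2 strands of miR-378a share a precursor and the near-identical members may share reads, so these are not independent. The members' median log2 fold change was 1.62 between eye and lung, 3.27 between eye and testicle and 1.48 between lung and testicle, beside medians over all tested miRNAs of 0.00, 0.05 and -0.90. Between lung and testicle, the log2 fold change of miR-378a-3p thus lay 2.50 above that of the median miRNA. Groups did not overlap for 3, 4 and 2 of the 4 members, and for 312, 434 and 364 of all 642. Over 30 settings of scaling, filter, tool and libraries, that median lay between -0.54 and 0.22 for eye against lung, between -0.24 and 0.56 for eye against testicle and between -0.97 and 0.00 for lung against testicle, while the direction of each of the 4 members was the same in all 30.

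No side difference was called for any member. Between left and right, edgeR called 0% of the 487 miRNAs tested in eyes, 0% of 430 in lungs and 0% of 464 in testicles; at an unadjusted p under 0.05 there were 18, 1 and 36, and DESeq2 called 1, 0 and 1, none of them a member. Each organ was scaled on its own 6 libraries for this test, so its values can differ in sign from the CPM given above, which were scaled over all 18. For miR-378a-3p the log2 difference of left against right was 0.15 for eyes (95% interval -0.43 to 0.73), 0.02 for lungs (-0.59 to 0.64) and 0.05 for testicles (-0.34 to 0.45). For miR-378a-5p it was 0.17 (-0.22 to 0.56), 0.49 (-0.50 to 1.48) and -0.10 (-0.996 to 0.80) in the same order. For miR-378b it was 0.07, -0.04 and 0.07, and for miR-378c it was 0.11 in eyes and -0.09 in lungs, with the testicle comparison left out by the filter. On the scaling over 18 libraries 3 of these small differences had the other sign: miR-378a-3p in the testicle (means of 789 CPM left and 865 right, beside 724 and 698 when scaled within the organ), miR-378b in the testicle (12.2 and 13.3, beside 11.2 and 10.7) and miR-378b in the lung (61.9 and 59.8, beside 67.1 and 69.3). With 3 libraries a side, these intervals still allow differences of about the size of the intervals' ends, so the sides are not shown to be alike. The joint test of whether the side difference varied between organs called 0% of 642 miRNAs (edgeR; 21 at an unadjusted p under 0.05), with unadjusted p of 0.71 for miR-378a-3p, 0.39 for miR-378a-5p, 0.87 for miR-378b and 0.96 for miR-378c.

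Since miR-378a is abundant in striated muscle, 8 names of muscle miRNAs were listed. The name miR-133b was absent, and the other 7, with miR-133b-3p among them, were in the tables and tested. Of these, 5 were called higher in the eye and 2 higher in the lung, and likewise 5 and 2 between eye and testicle; between lung and testicle, 2 were called lower in the lung, miR-1a-3p and miR-499-5p, and the other 5 were not called. The most abundant of them in the eye, miR-206-3p, a skeletal muscle miRNA, averaged 3324 ± 1018 CPM over eyes, 3.18 ± 2.46 over lungs and 7.18 ± 4.94 over testicles (SD, n = 6). Next came miR-1a-3p, found in heart and skeletal muscle, with 2666 ± 990 CPM for eyes, 246 ± 196 for lungs and 766 ± 171 for testicles. The slow-muscle miRNA miR-499-5p had 2466 ± 271, 17.0 ± 6.43 and 396 ± 87.0 CPM in the same order, and miR-133a-3p had 779.9 ± 209.8, 28.4 ± 24.4 and 39.2 ± 13.7 CPM. The 2 that were lower in the eye were miR-208a-3p and miR-208b-3p, both scarce in every organ. Their means were 0.18 and 3.14 CPM for eyes, 10.6 and 9.90 for lungs, and 3.87 and 8.37 for testicles.

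Summed over the list, muscle miRNAs took 7090 to 12850 CPM of eye libraries, 79.2 to 553 of lung libraries and 935 to 1535 of testicle libraries. Their level thus moved with the family between the eye and the other organs, and their part in that result was not tested. Between lung and testicle the sum was higher in every testicle library than in every lung library, while miR-378a-3p was 3.03-fold higher in the lung. That sum rested mainly on miR-1a-3p and miR-499-5p, and the list's median log2 fold change was -0.61, beside -0.90 over all tested miRNAs. The uncalled values of miR-208a-3p (log2 1.21) and miR-208b-3p (0.23) were higher in the lung.

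**Figure D4:**
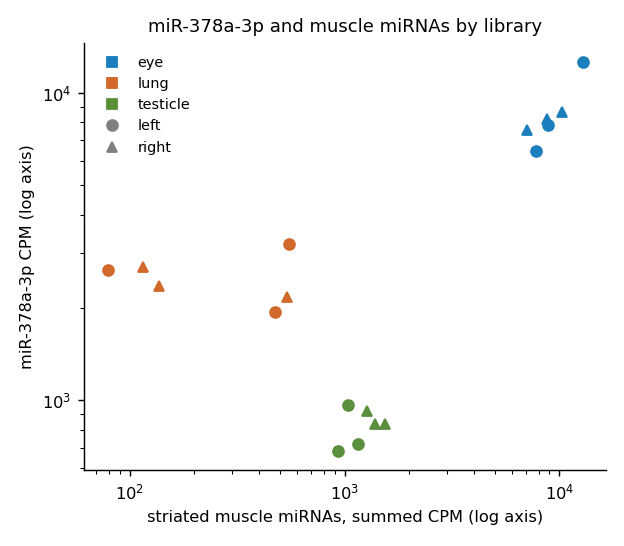
CPM of miR-378a-3p against the summed CPM of 7 striated muscle miRNAs in each of the 18 libraries, both on log axes, coloured by organ. The eye libraries are highest on both axes, and the lung libraries lie above the testicle libraries for miR-378a-3p but to their left for the muscle miRNAs.

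Other miRNAs known from lipid, glucose or mitochondrial metabolism did not share the order of the family as a group. Of 16 listed, 15 were in the tables and 13 were tested: against the lung, the eye was higher for 4 and lower for 3; against the testicle, the eye was higher for 8 and lower for 1, and the lung higher for 5 and lower for 5. Their median log2 fold changes were -0.22, 1.43 and -0.22, beside 0.00, 0.05 and -0.90 over all tested miRNAs. The most abundant of them was miR-375-3p, a regulator of insulin secretion, which was highest in the testicle (15661 ± 2875 CPM, beside 3383 ± 452 for eyes and 3537 ± 880 for lungs). Another of them, miR-27b-3p, was highest in the lung (8631 ± 1173 CPM, beside 3569 ± 488 for eyes and 1318 ± 252 for testicles). The cholesterol regulator miR-33-5p, from an intron of Srebf2, was higher in the eye and lung than in the testicle (log2 2.18 and 2.40; edgeR, adjusted p = 2.0e-04 and 9.7e-05) and not called between eye and lung. For miR-103-3p, an insulin sensitivity regulator, no pair of organs was called (log2 -0.29, -0.50 and -0.22; adjusted p = 0.47, 0.17 and 0.56).

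The miRNAs outside the family whose pattern lay nearest to miR-378a-3p were taken from 311 with a mean of at least 50 CPM, by the root mean square (RMS) difference of log2(CPM + 1) values over the 18 libraries, each centred on its own mean. Nearest was miR-29c-5p (0.39), followed by miR-181b-5p (0.43), miR-31-5p (0.46), miR-181a-1-3p (0.48) and miR-338-5p (0.56), where the median over all 311 was 1.75. All 5 had the order eye, lung, testicle, which follows from choosing them by their likeness to miR-378a-3p and is not a separate result. The nearest of these, miR-29c-5p, averaged 173 ± 16.1 CPM over eyes, 79.1 ± 16.8 over lungs and 21.7 ± 5.27 over testicles, while miR-181b-5p came closest in level, with 9044 ± 777, 2423 ± 960 and 1054 ± 158 CPM. By the same measure miR-378b lay at 0.32 from miR-378a-3p, nearer than any miRNA outside the family. Whether reads shared with miR-378a-3p had a part in this was not tested. The opposite strand of the same hairpin, miR-378a-5p, lay at 0.46, with 2 outside miRNAs nearer, and miR-378c lay at 0.85, with 24 nearer. The spread of these values includes the counting noise of the scarcer miRNAs, as all were measured in the same libraries.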

How the data were processed

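RNA was isolated on spin columns and small RNA libraries followed the BGI-500 procedure, per the labels' protocols; GRCm38.p6 is the build in the submitters' processing notes. The aligner, the counter and how multiply matching reads or strand were handled were not given in the sources used here. Each library has a table of raw whole-number counts for mature miRNAs, as deposited by the authors.

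The test was that of edgeR 4.0.16 under R 4.3.3 (TMM scaling, filterByExpr by group, quasi-likelihood test, Benjamini-Hochberg adjustment over all tested miRNAs, threshold 0.05). Organs, averaged over both sides, were compared in 1 fit of 6 groups, and sides within each organ on its 6 libraries. Within-library ratios used log2 of counts with 0.5 added and exact permutation tests; miR-378c, with fewer than 10 counts in some libraries, was not tested this way. The self-test on simulated counts recovered 93.7% of 2-fold changes between eye and lung (599 miRNAs) and 84.5% between left and right eye (487 miRNAs). The lowest shares were 89.2% between lung and testicle and 82.2% between left and right lung. Every simulated miRNA had the same dispersion, the groups shared 1 mean profile, and changed miRNAs averaged at least 10 counts. The self-test therefore does not cover large differences in profile between organs, or members as scarce and spread as miR-378c. Alternatives were DESeq2 1.42.0, other scalings, no filter, a replicate block, each side alone, and each library left out. Sequences and positions are from RefSeq, and overlapping genes from the GENCODE annotation of the same build. Named miRNAs were the 5 members, the 5 nearest patterns, and the 4 most abundant of the muscle and metabolic lists; the miR-208 pair and the marker examples were named after their values were seen. Members and lists were chosen with earlier results of these data known.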

Additional observations from a re-analysis of the deposited data

Results flagged for a closer look

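In the eye, miR-378a-3p was 12557 CPM in the first left eye library, while the other 5 eye libraries held 6448 to 8667 CPM. The gap to the next library was 0.637 of the whole range of the 6 eye libraries, above the 95% critical value of Dixon's test for 6 values. It was the only such value among 21 sets of 6 libraries looked at (the level or the ratio of a member in 1 organ), and chance marks about 1 group in 20. The same library had the highest miR-378b (183 CPM) and miR-378a-5p (761 CPM) of the eye, the highest summed muscle miRNAs (12850 CPM, against 7090 to 10311 in the other eyes) and the highest summed red-cell miRNAs (4303 CPM, against 1413 to 2377). Their part in the value was not tested.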

How the results depend on the processing

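Across 29 alternatives for each pair of organs, 329 of 348 values of the 4 members kept their direction and their side of the threshold. No organ value changed direction. None of the 121 side values was called, but small ones changed sign, such as miR-378a-3p in eyes (-0.19 to 0.36). Of the 132 ratio values, those called for miR-378b kept their direction and, where tested, their call. Ratios from each side alone and from libraries numbered 2 and 3 were not tested. Uncalled ratios could change sign, such as miR-378a-5p between eye and lung (-0.10 to 0.38). The exceptions among the organ values were miR-378c and, once, miR-378a-5p. Between lung and testicle, miR-378c became called with relative log expression scaling (1.29), library totals (1.49), no filter (1.09), DESeq2 (1.30), the replicate block (1.06), left lung 1 (1.65) or left testicle 1 (1.57) as TMM reference, the 12 libraries of both organs alone (1.44), and libraries numbered 2 and 3 only (1.21, added after seeing the data); leaving out 1 library gave 0.91 to 1.68. Between eye and lung it lost its call with left testicle 1 as reference (0.86) and from left (1.01) or right (1.44) libraries alone, and leaving out 1 library gave 0.78 to 1.64. From right libraries alone miR-378a-5p lost its call between lung and testicle (0.88). Side calls over all miRNAs rose from 0 to 6 (eye, no filter), 1 (lung, no filter), and 1 with DESeq2 (eye and testicle); leaving out 1 library gave 0 to 1 in eye and testicle. With left testicle 1 as reference, the share of calls that were higher in the eye than in the lung went from 59.1% to 42.8%, and with left lung 1 the share higher in the lung than in the testicle from 35.8% to 46.6%. The difference of miR-378c between library numbers, whose alternatives were all added after seeing the data, lost its call without the eye (-1.67), lung (-1.18) or testicle (-1.54) libraries; leaving out 1 library gave -1.68 to -1.29, and DESeq2 gave -1.35 with no adjusted p. Whether the numbers pair the sides could not be decided. Deviations of same-numbered left and right libraries of an organ correlated at a median r of 0.02 (-0.42 to 0.40, over 0.1 in 4 of 9 pairs). With so few libraries in each group, values this scattered cannot tell whether same-numbered libraries share a mouse. The replicate block changed the call of no member other than miR-378c. The cause of these changes was not tested. Depth limits miR-378c in the testicle (2 to 9 counts) and miR-378d throughout.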
